A study of Mus musculus with 12 samples.

Results

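The 31 genes described here encode the machinery that charges transfer RNAs and drives protein synthesis inside mitochondria. They were taken from a fixed list of gene names and made up 31 of the 21951 protein-coding genes of the mouse annotation (GENCODE release 21 of the mouse series, genome build mm10). The list held 16 mitochondrial aminoacyl-tRNA synthetases, 3 subunits of the glutamyl-tRNA amidotransferase (Gatb, Gatc and Qrsl1) and 12 translation factors. The factors comprised Mtif2, Mtif3 and Mtfmt for initiation, Tufm, Tsfm and Gfm1 for elongation, Mtrf1 and Mtrf1l for termination, Gfm2 and Mrrf for ribosome recycling, and the GTPases Mtg1 and Mtg2 that act in ribosome assembly. A promoter was any annotated transcription start site with 1 kb on either side.

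Mitochondria translate the few proteins of their own genome with a bacterial-type apparatus whose protein parts are encoded in the nucleus. Synthetases attach each amino acid to its transfer RNA, the amidotransferase converts glutamyl-tRNA into glutaminyl-tRNA, and the factors start, extend, end and recycle translation on the mitochondrial ribosome. LSD1, encoded by Kdm1a, removes methyl groups from lysine 4 of histone H3, and dimethylation of that lysine (H3K4me2) marks the flanks of active promoters and enhancers. In liver, a tissue rich in mitochondria, this machinery supplies core subunits of the respiratory chain.

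Chromatin immunoprecipitation sequencing (ChIP-seq) of LSD1 was done in liver of wild-type C57BL/6 mice. H3K4me2 ChIP-seq was done in liver of LSD1 fl/fl mice that received an adeno-associated virus with Cre (LSD1-LKO) or with GFP (control, Con). Both viruses used the Tbg promoter, which confines Cre to hepatocytes, so other liver cells keep the gene, and controls and knockouts share the floxed allele and a virus injection. The series held 12 libraries, of which 6 were ChIP libraries and 6 were their controls. The labels do not name a diet for the animals behind these libraries.

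Each deposited list joined the peaks of 2 libraries and kept a peak of the first-listed library where the second had an overlapping peak. The lists held 14584 entries for LSD1, 43891 for H3K4me2 in controls and 50675 for H3K4me2 in LSD1-LKO. Read depth was not given, and median fold enrichment over all entries was 2.90 and 3.0 in the LSD1 libraries, 3.36 and 4.32 in the control H3K4me2 libraries, and 3.11 and 4.30 in the LSD1-LKO libraries. The second-listed H3K4me2 libraries had wider peaks than the first-listed ones, with medians of 1161 against 648 bp in controls and 1240 against 565 bp in LSD1-LKO, and the peak names of the first-listed libraries alone carry the word picard. The lists hold peaks and no levels for Kdm1a itself, so the deletion could not be checked here. With 2 libraries for each genotype the smallest two-sided exact p is 0.333, and differences are therefore given as values beside the spread between libraries, with no test.

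Control H3K4me2 promoter peaks were present at 7 of 8 hepatocyte marker genes and at 0 of 6 genes of other tissues (Neurod1, Myod1, Myh6, Gfap, Ins2 and Cdx2). They were present at 2 of 3 liver endothelial, 1 of 3 stellate and 0 of 3 Kupffer cell markers. In LSD1-LKO the counts were 8 of 8, 0 of 6, 2 of 3, 2 of 3 and 0 of 3 in the same order. The added hepatocyte marker was Cps1, whose covered promoter length was 0 and 1375 bp in controls and 277 and 738 bp in LSD1-LKO. Presence was counted on first-listed intervals, so this is not a gain in both libraries. The added stellate marker, Lrat, had 0 bp in both control libraries and 277 and 851 bp in LSD1-LKO. In whole tissue, a change in the cells present and a change per cell cannot be told apart.

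The promoter sequences below are examples chosen to show the motif matches beside LSD1 peaks, shared promoters and the largest positive H3K4me2 difference. They come from RefSeq on GRCm38.p6, the assembly of mm10, and run 5′ to 3′ on the gene's strand from 250 bases before the gene start to 50 bases from it, 300 bases in all. Of the 31 genes, 27 had such a window (28 windows, 2 of them for Aars2), and Pars2, Gatb, Mtif3 and Hars2 had none. Capitals mark matches to 4 motif cores searched on both strands: CGCATGCG for NRF1, CCGGAAGT for the ETS factors that include GABP, CAAGGTCA for ERR, and AAGATGGC for YY1. Mtfmt, Mtg1 and Wars2 had an LSD1 promoter peak and an NRF1 core.
Mtfmt (chr9:65435532-65435831, plus strand): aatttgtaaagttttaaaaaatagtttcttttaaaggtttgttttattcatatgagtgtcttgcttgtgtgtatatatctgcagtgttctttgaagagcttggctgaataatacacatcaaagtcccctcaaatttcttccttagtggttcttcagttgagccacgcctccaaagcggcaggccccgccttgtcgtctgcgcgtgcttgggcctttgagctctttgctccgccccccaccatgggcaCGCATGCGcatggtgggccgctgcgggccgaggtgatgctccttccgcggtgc
Mtg1 (chr7:140137314-140137613, plus strand): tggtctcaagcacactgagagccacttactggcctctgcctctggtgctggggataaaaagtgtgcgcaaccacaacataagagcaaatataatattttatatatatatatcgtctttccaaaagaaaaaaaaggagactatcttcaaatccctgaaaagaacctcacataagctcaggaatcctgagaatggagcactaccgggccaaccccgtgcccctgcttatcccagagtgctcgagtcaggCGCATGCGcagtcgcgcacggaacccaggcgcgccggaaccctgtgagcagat
Wars2 (chr3:99140840-99141139, plus strand): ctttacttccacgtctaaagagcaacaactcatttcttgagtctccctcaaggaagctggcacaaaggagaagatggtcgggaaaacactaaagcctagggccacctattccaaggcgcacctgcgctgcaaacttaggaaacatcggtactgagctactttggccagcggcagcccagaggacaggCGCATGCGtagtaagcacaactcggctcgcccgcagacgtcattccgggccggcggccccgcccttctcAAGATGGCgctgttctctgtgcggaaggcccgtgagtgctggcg
Vars2 held the NRF1 core in 2 places and had no LSD1 promoter peak.
Vars2 (chr17:35667543-35667842, minus strand): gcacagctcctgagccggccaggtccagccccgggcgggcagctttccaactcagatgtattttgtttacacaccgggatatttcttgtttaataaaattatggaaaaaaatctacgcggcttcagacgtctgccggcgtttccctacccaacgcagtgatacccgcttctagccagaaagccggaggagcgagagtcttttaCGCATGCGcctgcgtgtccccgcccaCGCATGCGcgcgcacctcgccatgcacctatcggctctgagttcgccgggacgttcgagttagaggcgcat
Gatc and Gfm2 had an LSD1 promoter peak in a promoter shared with a neighbour on the other strand, and none of the 4 cores.
Gatc (chr5:115341112-115341411, minus strand): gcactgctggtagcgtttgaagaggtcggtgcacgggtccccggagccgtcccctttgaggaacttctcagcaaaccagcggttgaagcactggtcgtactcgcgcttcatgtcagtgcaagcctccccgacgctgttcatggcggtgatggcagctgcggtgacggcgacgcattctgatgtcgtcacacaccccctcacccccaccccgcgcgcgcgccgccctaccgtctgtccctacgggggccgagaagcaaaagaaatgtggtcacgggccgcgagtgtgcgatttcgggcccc
Gfm2 (chr13:97137687-97137986, plus strand): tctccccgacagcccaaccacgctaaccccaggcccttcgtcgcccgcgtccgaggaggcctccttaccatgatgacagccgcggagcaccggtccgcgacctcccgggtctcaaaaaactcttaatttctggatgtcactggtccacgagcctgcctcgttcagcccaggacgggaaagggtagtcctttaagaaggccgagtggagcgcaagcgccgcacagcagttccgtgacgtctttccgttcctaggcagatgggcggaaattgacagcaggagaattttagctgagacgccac
Yars2 had the largest positive difference in H3K4me2-covered length, and Tufm carried the ETS core across its start site.
Yars2 (chr16:16302715-16303014, plus strand): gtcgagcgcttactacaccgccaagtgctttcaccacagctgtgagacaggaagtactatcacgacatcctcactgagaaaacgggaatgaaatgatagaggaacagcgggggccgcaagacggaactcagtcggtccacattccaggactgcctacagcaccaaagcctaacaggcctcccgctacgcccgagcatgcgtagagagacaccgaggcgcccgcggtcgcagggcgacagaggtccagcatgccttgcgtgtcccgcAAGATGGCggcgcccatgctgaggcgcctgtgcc
Tufm (chr7:126487105-126487404, plus strand): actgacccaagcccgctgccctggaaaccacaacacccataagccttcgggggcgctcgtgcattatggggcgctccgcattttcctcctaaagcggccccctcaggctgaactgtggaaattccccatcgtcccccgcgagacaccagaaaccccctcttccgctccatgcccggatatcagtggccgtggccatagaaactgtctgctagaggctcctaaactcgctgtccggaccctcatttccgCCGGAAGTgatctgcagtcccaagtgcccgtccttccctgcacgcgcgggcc

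The NRF1 core was found in the windows of 4 members, 14.3% of the 28 windows, against 2.62% of the 20150 windows of all protein-coding genes. NRF1 is a transcription factor of nuclear genes for mitochondrial proteins. In Mtfmt and Mtg1 the core began 3 bases before the gene start (position -3), in Wars2 at position -63 and in Vars2 at positions -47 and -21. In Mtfmt, Mtg1 and Wars2 it lay inside the LSD1 peak of both wild-type libraries. Thus 3 of the 7 member windows with an LSD1 promoter peak held the core, and 1 of the 21 without. Over all genes the shares were 4.15% of 5561 windows with an LSD1 promoter peak and 2.03% of 14589 windows without.

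The ETS core was present in 3 member windows (10.7%, against 5.35% of all windows), those of Gfm1, Rars2 and Tufm, beginning at positions -1, -5 and -2. None of these 3 genes had an LSD1 promoter peak. The YY1 core was present in 4 windows of 3 genes (14.3%, against 3.11%), namely Aars2, Wars2 and Yars2, each time just after the gene start, and both windows of Aars2 hold the same site. The ERR core was present in Mtrf1l alone (3.57%, against 1.25%), at position -207. These are matches of letters in a window and not measured binding. Median GC content was 58.2% in member windows and 57.0% in all windows, with 19 and 14 CpG dinucleotides at the median. GC content was lower in the factor windows (median 52.7%) than in the synthetase windows (58.0%).

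LSD1 peaks were present at the promoters of 8 of the 31 genes (25.8%). The background was 24.6% of all protein-coding genes and 38.6% of the 13777 genes with an H3K4me2 promoter peak in at least 1 list, so the share in this machinery was near the first and below the second. By role, LSD1 was at 3 of 16 synthetases (18.8%), 1 of 3 amidotransferase subunits and 4 of 12 factors (33.3%). Among the factors it was at 2 of 3 initiation genes, 0 of 3 elongation genes, 0 of 2 termination genes, 1 of 2 recycling genes and 1 of 2 assembly genes. The numbers are small, and 1 gene more or less moves the share of factors by more than the gap to the H3K4me2-marked genes. Each of the 8 peaks covered an annotated start site, with its centre at -179 to 117 bp from the nearest one on the gene's strand.

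Among the synthetases, the LSD1 peak of Pars2, the prolyl-tRNA synthetase (chr4:106650392-106651388, centre just upstream of the gene), had fold enrichments of 5.22 and 5.39 in the 2 wild-type libraries. Its rank was the percentile 94.6 of all LSD1 entries by mean -log10 p. Wars2, the tryptophanyl-tRNA synthetase (chr3:99141000-99141563, centre in the first part of the gene, intronic), had folds of 2.75 and 3.56 and rank 60.4. Cars2, the cysteinyl-tRNA synthetase (chr8:11549823-11550893, exonic centre), had folds of 3.32 and 2.60 and rank 51.3. The libraries were close to each other at these 3 genes, and Pars2 stood above the others in both.

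Gatc, a small subunit of the amidotransferase, had an LSD1 peak at chr5:115340703-115341766 with folds of 5.03 and 5.0 and rank 93.3. Its centre lay 57 bp upstream of the Gatc start site (position -57), and that of Triap1 is 47 bp away on the opposite strand, so the peak covered both starts and cannot be assigned to one of the genes.

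Among the factors, Mtfmt, the formyltransferase that makes the initiator formyl-methionyl-tRNA (chr9:65435544-65436222, exonic centre), had the highest fold of the group in one library and a low one in the other, 7.98 and 1.99. Its rank of 95.1 therefore came from the first-listed library, where -log10 p was 14.1 against 2.16 in the second. Gfm2, the recycling elongation factor (chr13:97137353-97138554, exonic centre), differed in the same way, with folds of 5.42 and 1.56, -log10 p of 8.15 and 1.30, and rank 70.6. Its start site is 41 bp from that of Nsa2 on the other strand.

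Mtif2, the initiation factor that places the initiator tRNA on the ribosome (chr11:29526113-29526849, exonic centre), had folds of 4.23 and 2.83 and rank 62.9. Mtg1 (chr7:140137364-140137860, exonic centre) had folds of 4.01 and 3.83 and rank 82.2, the only factor peak with like values in both libraries. With a p of at most 1e-05 required in both libraries, LSD1 stayed at Pars2, Gatc and Mtg1, that is 3 of 31 genes, against 5.68% of all protein-coding genes at that threshold.

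**Figure D1:**
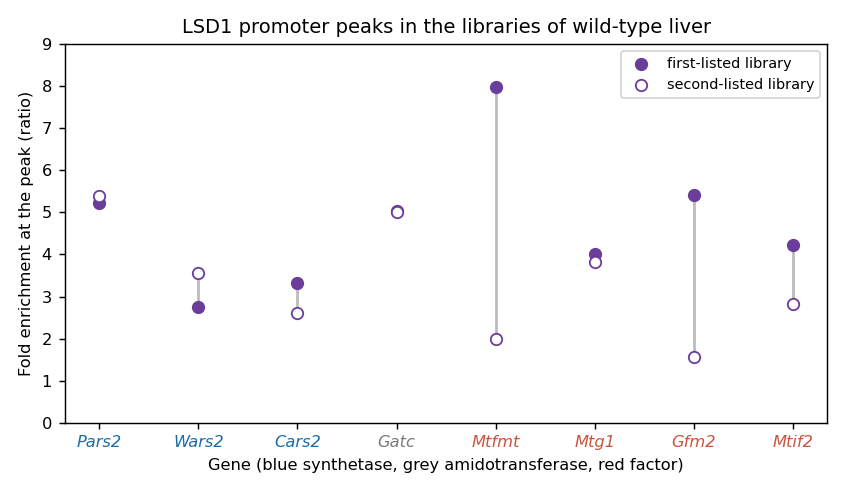
LSD1 fold enrichment (vertical axis, ratio to the control library, linear from 0) at the 8 promoter peaks, with a filled circle for the first-listed and an open circle for the second-listed wild-type library and names coloured by role. Pars2, Gatc and Mtg1 have nearly equal values in both libraries, whereas Mtfmt (7.98 and 1.99) and Gfm2 (5.42 and 1.56) rest on the first.

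The other 23 genes had no LSD1 promoter peak. Their nearest LSD1 peak centre was between 2591 bp (Fars2, with 6 LSD1 peaks along its gene body) and 366640 bp (Qrsl1) from a start site. Tufm, the elongation factor that delivers charged tRNAs, and Mtrf1, a release factor, had strong LSD1 peaks nearby, with ranks 95.9 and 96.0, at 4937 and 7051 bp. For Tufm the gene nearest to that peak was Tufm itself, and for Mtrf1 it was Naa16.

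H3K4me2 was present at the promoters of all 31 genes in the control list and of all 31 in the LSD1-LKO list. The background was 59.6% of protein-coding genes in controls and 59.7% in LSD1-LKO, so no gene of this machinery gained or lost its mark at the level of presence. With p at or below 1e-05 in both libraries, 28 genes kept a peak in the control list and 24 in the LSD1-LKO list, and over all protein-coding genes the counts were 10525 and 9919. At this threshold Gfm2, Iars2, Mtg2 and Mtrf1l had a peak in controls alone. Their LSD1-LKO entries missed it in the first-listed library alone (-log10 p of 2.54 to 3.97). In the second-listed LSD1-LKO library the same entries had -log10 p of 11.9 to 16.9. At these promoters the control list had 43 entries and the LSD1-LKO list 48. Median fold enrichment of these entries was 4.48 and 6.48 in the control libraries and 3.79 and 5.83 in the LSD1-LKO libraries. This was higher than over the whole lists, which are not confined to promoters. Among promoters the members did not stand out as strong. The percentile of a gene's best promoter peak within its list had a median of 75.7 in controls and 78.2 in LSD1-LKO. Over all genes with a peak in both lists it was 82.6 and 83.0. Members had more annotated start sites than other genes (median 6 against 3), and their promoters were longer (median 4366 against 4002 bp).

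**Figure D2:**
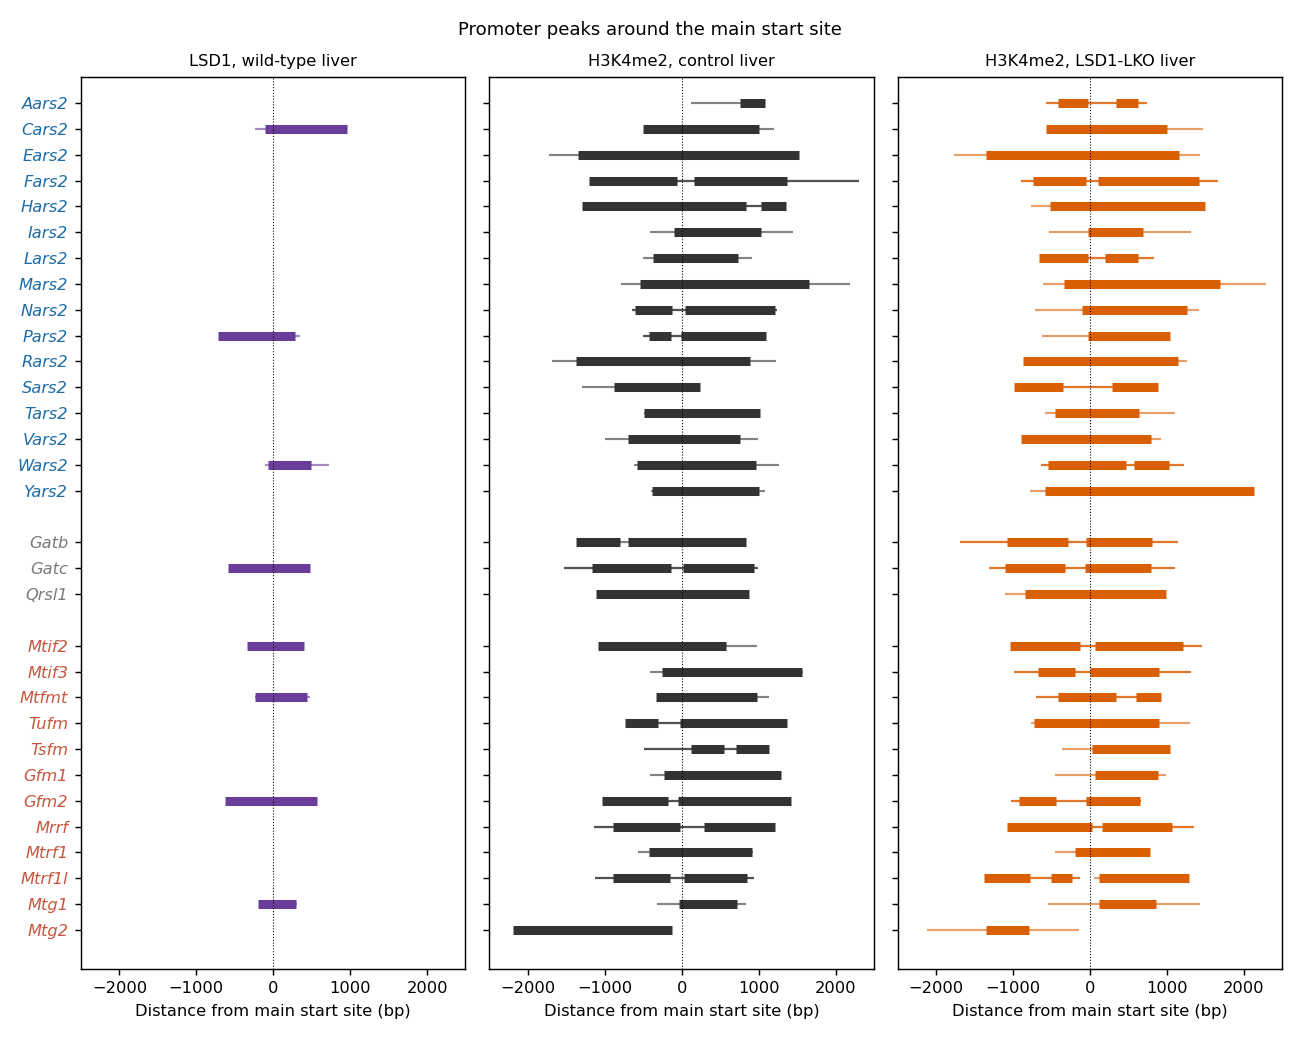
Peak intervals by distance from the main start site of each gene (horizontal axis, bp, gene strand to the right), with thick bars for the first-listed and thin lines for the second-listed library and genes in rows by role. The 8 LSD1 peaks lie over the start site, and H3K4me2 spans it or flanks it on both sides at most genes, whereas the peaks of Mtg2 lie upstream in both genotypes and those of Aars2 lie downstream in controls.

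The H3K4me2 peaks covered the main start site of 23 and 28 genes in the first- and second-listed control libraries and of 20 and 29 in the LSD1-LKO libraries. For the factors the counts were 8 and 11 of 12 in controls and 5 and 10 of 12 in LSD1-LKO. For the synthetases they were 13 and 14 of 16 in controls and 12 and 16 of 16 in LSD1-LKO. Over all marked genes the shares were 61.5% and 76.8% in controls and 53.3% and 76.4% in LSD1-LKO. The lower count in the first-listed LSD1-LKO library was thus shared with other genes, and the second-listed libraries did not show it for the synthetases.

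At Mtg2 the main start site was uncovered in all 4 libraries. Its H3K4me2 peak ended at position -120 from that site in the first-listed control library and lay over start sites annotated further upstream.

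Covered length, the number of promoter bases under H3K4me2 peaks, averaged 1533 and 1705 bp per gene in the control libraries and 1440 and 1845 bp in the LSD1-LKO libraries. The mean difference, LSD1-LKO minus control, was 23.5 bp for the 31 genes and -25.1 bp for all 13777 marked genes, and the medians were -29 and -32 bp. The libraries of a genotype differed with an SD of 220 bp, so the difference over the 31 genes was within the spread between libraries. It was below 0 for 18 genes and above 0 for 13.

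The 16 synthetases averaged 1530 and 1694 bp in controls and 1552 and 1869 bp in LSD1-LKO, a difference of 98.4 bp with an SD between libraries of 178 bp. The 12 factors averaged 1471 and 1701 bp in controls and 1239 and 1782 bp in LSD1-LKO, a difference of -75.8 bp with an SD of 295 bp. The amidotransferase subunits differed by 21.7 bp. Factors minus synthetases gave -174 bp, with an SD of 118 bp between libraries. The median gene did not separate the groups, with -34.5 bp for factors and -38.5 bp for synthetases, so the gap between the means came from a few genes in each group. With 1 start site per gene the mean difference was 8.84 bp for synthetases and -67.0 bp for factors. With protein-coding transcripts alone it was 52.2 bp for synthetases and -46.2 bp for factors. With p at or below 1e-05 in both libraries the differences were -79.8 bp for synthetases and -493 bp for factors, against -131 bp for all marked genes.

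**Figure D3:**
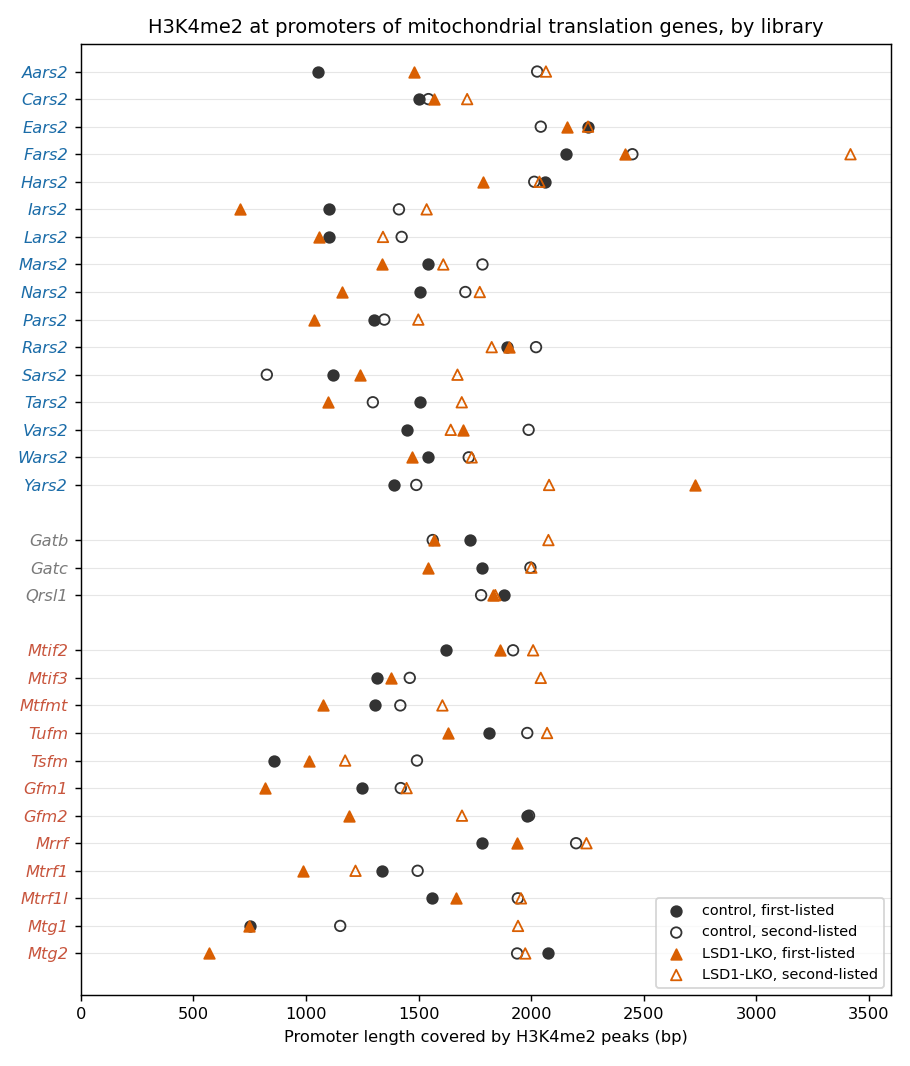
Promoter length covered by H3K4me2 peaks (horizontal axis, bp, linear from 0) for each gene in the 4 libraries, circles for control and triangles for LSD1-LKO, filled for first-listed and open for second-listed libraries. In most rows the genotypes overlap, while both triangles lie to the right of both circles at Yars2, Sars2 and Cars2 and to the left at Gfm2 and Mtrf1.

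Covered length was higher in both LSD1-LKO libraries than in both control libraries at 3 genes, each a synthetase, and lower in both at 2 genes, each a factor. Among all marked genes the shares were 15.1% higher and 17.3% lower, and 3 and 2 of 31 genes do not exceed these shares. By role, 3 of 16 synthetases were higher and 2 of 12 factors were lower, each near the share among all marked genes. No synthetase was lower in this sense and no factor was higher. With so few genes, this split by role was not tested.

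Yars2, the tyrosyl-tRNA synthetase (chr16:16302965-16309640), had 1392 and 1490 bp in controls and 2726 and 2080 bp in LSD1-LKO. Both LSD1-LKO values were far above both control values, and the difference of 962 bp was the largest positive difference of the 31 genes. The first-listed peak ran from -384 to 1007 bp around the main start site in controls and from -589 to 2136 bp in LSD1-LKO, and the second-listed one from -400 to 1089 bp and from -777 to 1302 bp. The peak was thus longer on both sides, mostly downstream in the first-listed pair and mostly upstream in the second-listed pair. Yars2 had no LSD1 promoter peak, and the nearest LSD1 peak was 54291 bp away.

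Sars2, the seryl-tRNA synthetase (chr7:28741992-28753871), had 1119 and 826 bp in controls and 1240 and 1673 bp in LSD1-LKO, a difference of 484 bp. The groups did not overlap, with differences of 121 bp between the first-listed and 847 bp between the second-listed libraries. Sars2 shares its promoter with Mrps12, a mitochondrial ribosomal protein gene whose start site is 182 bp away on the other strand. Cars2 had 1502 and 1544 bp in controls and 1570 and 1716 bp in LSD1-LKO, a difference of 120 bp with a narrow gap between the groups.

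Fars2, the phenylalanyl-tRNA synthetase (chr13:36117412-36726280), had 2155 and 2450 bp in controls and 2418 and 3419 bp in LSD1-LKO. The difference of 616 bp came next in size, with overlapping groups. The LSD1-LKO list had a peak at chr13:36721387-36721803, beside a start site annotated far downstream in this long gene. It was 417 and 1054 bp wide in the first- and second-listed libraries, and neither control library covered the first-listed interval. Both widths exceed the differences of 263 bp between the first-listed and 969 bp between the second-listed libraries. Outside this peak, covered length was therefore not higher in LSD1-LKO.

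Gfm2 had 1980 and 1991 bp in controls and 1193 and 1693 bp in LSD1-LKO, a difference of -542.5 bp. Both knockout values lay below both control values, with the first-listed library lower than the second. The downstream edge of its H3K4me2 peak lay 1416 bp past the main start site in the first-listed control library and 645 bp in the LSD1-LKO library, and in the second-listed libraries it lay at 1269 and 662 bp. H3K4me2 thus reached less far downstream of the start in both LSD1-LKO libraries. The LSD1 peak of Gfm2 is not kept with p at or below 0.01 in both wild-type libraries, which leaves 7 of 31 genes and 3 of 12 factors with LSD1.

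Mtrf1 (chr14:79397772-79423587) had 1336 and 1496 bp in controls and 985 and 1220 bp in LSD1-LKO, a difference of -313.5 bp. The groups did not overlap, and the peak was shorter on both sides of the start site. Mtg2 (chr2:180070588-180085902) had 2077 and 1938 bp in controls and 569 and 1974 bp in LSD1-LKO. Its difference of -736 bp, the largest negative one, came from the first-listed LSD1-LKO library, and the second-listed libraries differed by 36 bp in the other direction. The second-listed LSD1-LKO value lay between the control values.

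**Figure D4:**
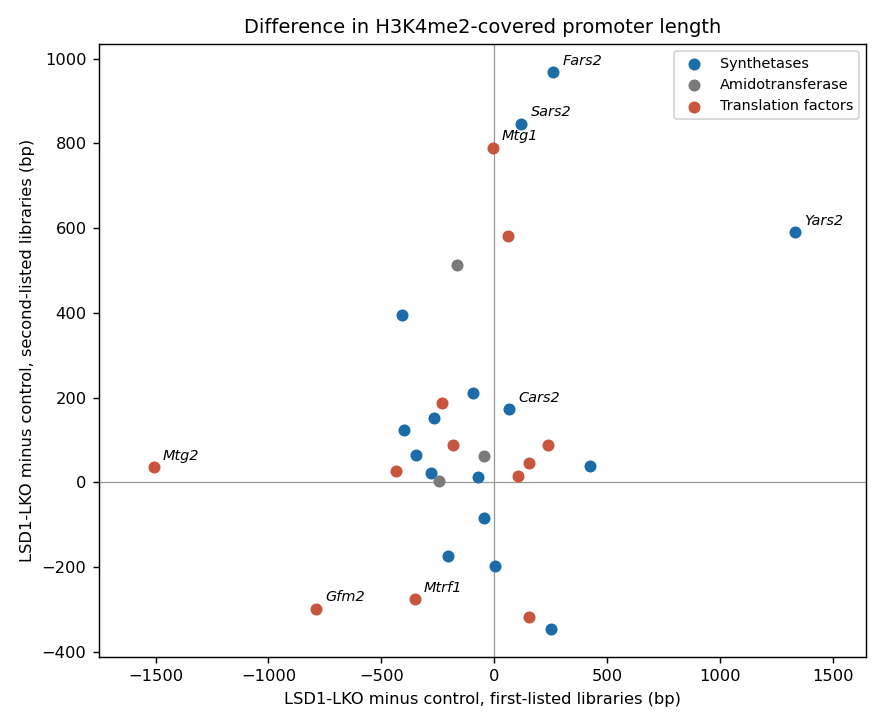
Difference in covered length, LSD1-LKO minus control, between the first-listed libraries (horizontal axis, bp) and between the second-listed libraries (vertical axis, bp), 1 point per gene coloured by role. Yars2 lies high on both axes, Gfm2 and Mtrf1 lie low on both, and Mtg2 (-1508 and 36 bp) and Mtg1 (-7 and 790 bp) lie far out on one axis.

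The libraries of a genotype differed more than the genotypes did. The SD between libraries was 220 bp for the 31 genes, 178 bp for synthetases and 295 bp for factors. The mean differences between genotypes were 23.5, 98.4 and -75.8 bp for the same groups. Between first-listed libraries the mean difference was -93.0 bp for the 31 genes, 22.0 bp for synthetases, -232 bp for factors and -117 bp for all marked genes. Between second-listed libraries it was 140 bp, 175 bp, 80.4 bp and 66.9 bp in the same order. Within each pairing the factors lay below the synthetases, whereas the sign for the factors themselves depended on the library.

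The 8 genes with an LSD1 promoter peak differed by -11.8 bp on average and the 23 without by 35.8 bp. Under the LSD1 peaks themselves, H3K4me2 covered on average 87.5% and 97.4% of the peak length in controls and 70.7% and 98.9% in LSD1-LKO. Between the first-listed libraries the covered share was lower in LSD1-LKO at 7 of the 8 peaks, against 41.7% of the 5447 LSD1 promoter peaks of all genes. The lowest values were 31.7% at Pars2, from 58.4% in controls, and 36.4% at Mtg1, from 66.8%. Cars2 stayed at 100%. Wars2, Mtif2 and Mtfmt were also at 100% in the first-listed control library, where no higher value was possible. All 8 peaks had some cover in that library, against 89.1% of the 5447. A peak without cover in controls cannot be lower, so 7 of 8 and 41.7% are not like for like. Between the second-listed libraries none of the 8 was lower and 1 was higher, Pars2 with 79.2% in controls and 91.1% in LSD1-LKO. Over all genes 16.6% of LSD1 promoter peaks were lower between these libraries, and 1005 of the 5447 were higher. Most of the 8 were already at 100% in the second-listed control library, where no higher value was possible. For all LSD1 promoter peaks the means were 73.9% and 84.4% in controls and 67.7% and 85.5% in LSD1-LKO, the same pattern by library with a smaller step between the first-listed ones. The LSD1 peaks come from wild-type mice and not from the mice of the H3K4me2 lists.

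Rank, the percentile of a gene's best H3K4me2 promoter peak within its list, moved differently from covered length. It was higher in LSD1-LKO at 8 of 12 factors and at 4 of 16 synthetases, against 50.4% of the 12417 genes with a peak in both lists. The median rank of the factors was 66.5 in controls and 77.6 in LSD1-LKO, and that of the synthetases 81.3 and 78.6. Over all genes with a peak in both lists it was 82.6 and 83.0, so the factors stayed below it in both genotypes. By each library's own p-values, the rank was higher in both LSD1-LKO libraries at 5 of 12 factors and 2 of 16 synthetases (background 25.3%). It was lower in both at 2 of 12 factors and 7 of 16 synthetases (background 25.8%). For the factors the step came from the second-listed libraries, with a median difference of 10.9 percentile points there and -0.676 in the first-listed ones.

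The 3 initiation genes ranked higher in LSD1-LKO, with Mtif2 at 61.1 and 70.5, Mtif3 at 68.5 and 86.3, and Mtfmt at 64.6 and 85.5 in controls and LSD1-LKO. For Mtif2 this came from the second-listed libraries, with 30.4 and 68.9, whereas the first-listed ones went the other way with 91.2 and 73.6. Mtif3 is the initiation factor that keeps the ribosomal subunits apart before a messenger RNA is bound. Of the elongation genes, Tufm ranked 84.3 and 95.8 and Gfm1, the translocase, 63.7 and 82.5. Tsfm, which recharges Tufm with GTP, went the other way with 60.4 and 45.2. Mtg1 ranked 61.3 and 82.6, and Mtg2 82.5 and 65.5. Mtif3, Mtfmt, Tufm, Gfm1 and Mtg1 were the 5 factors with a higher rank in both libraries.

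Among the synthetases, the isoleucyl-tRNA synthetase Iars2 ranked 96.6 in controls and 74.1 in LSD1-LKO. This was a difference of the first-listed libraries, where its rank was 96.7 and 16.3, against 91.9 and 87.1 in the second. Pars2 ranked 87.3 and 66.0, here mainly through the second-listed libraries with 84.5 and 54.2. Yars2 held one of the strongest peaks in both lists, with ranks of 99.6 and 98.7. Its control rank left almost no room for a higher one, so rank cannot be compared with the longer domain at Yars2. Aars2, the alanyl-tRNA synthetase, had the lowest rank of the 31 genes in both lists, 33.2 and 27.9.

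**Figure D5:**
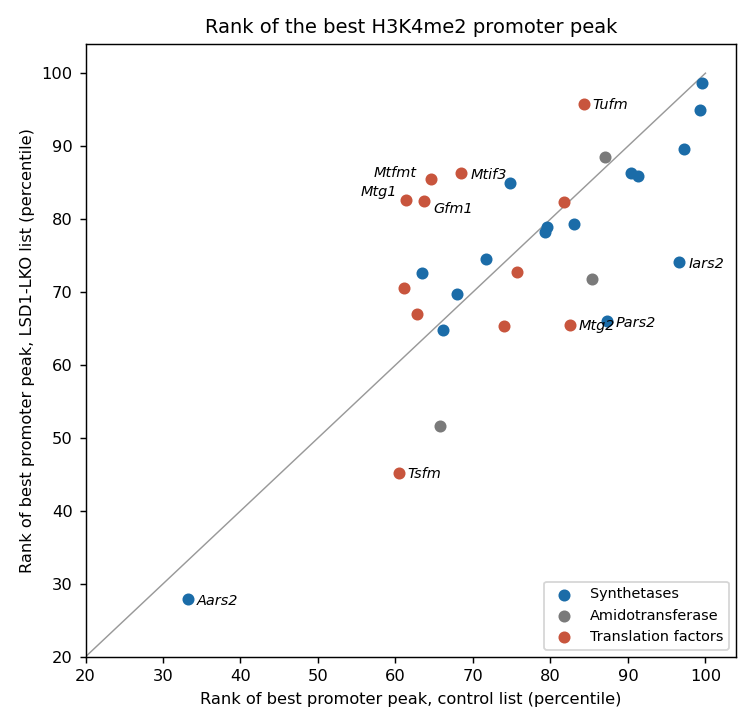
Rank of the best H3K4me2 promoter peak of each gene in the control list (horizontal axis, percentile) and the LSD1-LKO list (vertical axis, percentile), coloured by role, with a line of equal rank. Of the 12 factors 8 lie above the line, and of the 16 synthetases 12 lie below it.

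The promoters of 10 of the 31 genes overlapped that of another protein-coding gene, against 16.8% of all genes. At 9 of the 31 the main start site lay within 1 kb of that of a gene on the other strand, against 9.37% of all genes. These were 5 synthetases, 2 amidotransferase subunits and 2 factors. Ears2 was paired with Ubfd1 at 88 bp, Fars2 with Lyrm4 at 114 bp, Rars2 with Orc3 at 13 bp and Sars2 with Mrps12 at 182 bp. Hars2 lay 197 bp from Hars, the cytosolic histidyl-tRNA synthetase. Gatc was paired with Triap1, Qrsl1 with Rtn4ip1 at 62 bp, Gfm2 with Nsa2 and Mrrf with Rbm18 at 384 bp. H3K4me2 at these promoters belongs to both genes, and Vars2 overlapped the promoter of Gtf2h4 as well. LSD1 was at 2 of the 9 paired promoters, Gatc and Gfm2, and at 43.2% of the 2057 genes with such a promoter in the genome.

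Other genes of the pathway were counted in the same way. LSD1 was at 6 of 17 cytosolic synthetases (35.3%), 0 of 2 synthetases that serve both compartments, 4 of 13 genes of mitochondrial tRNA modification and processing (30.8%) and 4 of 15 other mitochondrial translation genes (26.7%). H3K4me2 was present in both lists at 17 of 17, 2 of 2, 12 of 13 and 15 of 15 of them. The exception was Hsd17b10, a subunit of mitochondrial RNase P, with 849 and 662 bp covered in controls and 0 in both LSD1-LKO libraries. It was singled out after its values were seen. Mean differences in covered length were -215 bp for cytosolic synthetases, -181 bp for the modification and processing genes and -146 bp for the other translation genes, against 98.4 bp for the 16 mitochondrial synthetases and -25.1 bp for all marked genes. The medians were -184, -157, -157 and -38.5 bp in the first 4 of these groups, so the mean of the mitochondrial synthetases was not that of its typical gene. By library order, the means were -364 and -65.1 bp for cytosolic synthetases, -271 and -91.0 bp for modification and processing genes, and -135 and -157 bp for the other translation genes. Covered length did not overlap between genotypes at 4 of the 17 cytosolic synthetases, 3 of them lower and 1 higher in LSD1-LKO. The counts were 2 lower and 1 higher of 13 modification and processing genes and 4 lower and 1 higher of 15 other translation genes, beside the shares of 17.3% lower and 15.1% higher among all marked genes. Cars, the cytosolic partner of Cars2, also had an LSD1 promoter peak (fold 3.49 in the first-listed library, rank 63.4). The strongest LSD1 peaks of these lists were at Guf1, a GTPase of mitochondrial translation (fold 6.24 in the first-listed library, rank 99.3), and Mterf3 (fold 7.12, rank 98.8). Iars, the cytosolic isoleucyl-tRNA synthetase, had rank 92.1, whereas Iars2 had no LSD1 promoter peak.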

How the data were processed

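LSD1 and H3K4me2 ChIP-seq was done in mouse liver. Per the labels and the study's methods, the authors aligned reads with Bowtie 2 to mm10, called peaks with MACS2 against control libraries and intersected the peaks of 2 libraries with bedtools 2.25.0. The 3 deposited lists give, for each library, the interval, the fold enrichment (a ratio to the control library) and MACS scores as -log10 p and -log10 q values. Their lowest -log10 p was 1.30. The 12 columns with integer scores, summit offsets and the like were not used. Read depth was not given in the sources used here, so no counting interval was made.

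Windows of 1 kb to each side of the 93526 transcript starts of protein-coding genes served as promoters. Presence needed 1 bp of overlap with a first-listed interval. Covered length was taken per library, and the difference was the mean of 2 LSD1-LKO minus the mean of 2 control libraries. Ranks are percentiles by mean -log10 p. Overlap and length functions were tested on 500 simulated sets against per-base counting, with 0 differing results (Python 3.11.15, pandas 2.3.3, numpy 2.4.6). No test across genes was run. Full values were given for members with an LSD1 promoter peak, with H3K4me2 in 1 list only or in neither, with covered length not overlapping between genotypes, or among the 3 largest differences in each direction. Other pathway genes could be named if they shared a promoter with a member or were among the top 5 of their list by LSD1 rank. Not all of these were named in the Results. Among cytosolic synthetases Yars, Nars and Farsa had LSD1 ranks of 88.4, 70.1 and 66.9, above that of Cars. Hsd17b10 was named outside this rule. The members and lists were chosen with earlier results of these data known. Alternatives covered promoter width, start sites, peak thresholds, overlap rule, library, scale and shared promoters. Libraries are named by their place in the lists, which carry no replicate numbers.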

Additional observations from a re-analysis of the deposited data

How the results depend on the processing

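LSD1 and H3K4me2 counts were computed under 10 alternatives and covered-length differences under 13. Presence of H3K4me2 stayed within 1.5 times of 31 genes in each, at 24 genes or more. The LSD1 counts changed with the peak threshold, to 7 of 31 genes at p at or below 0.01, where Gfm2 was not kept. With p at or below 1e-05, and with q at or below 0.05, in both libraries they were 3 of 31 genes, 1 synthetase and 1 factor. At p at or below 1e-05 the mean difference in covered length was -216 bp for the 31 genes, -79.8 bp for synthetases, -493 bp for factors and -413 bp for factors minus synthetases, and that for all marked genes was -131 bp. At q at or below 0.05 it was -524 bp for factors and -520 bp for factors minus synthetases, and -104 bp for all marked genes. Gfm2, Iars2 and Mtg2 then had no H3K4me2 promoter peak in the LSD1-LKO list but kept one in the control list at both thresholds. Their LSD1-LKO entries fell short in the first-listed library alone. There -log10 q was 0.956, 0.461 and 1.04 in the same order, against 13.0, 11.5 and 8.78 in the second-listed library. An entry that fell short in 1 library was left out of both. Over all protein-coding genes the control and LSD1-LKO counts were 10525 and 9919 at the p threshold and 11986 and 11533 at the q threshold. The cause was not tested. Factors minus synthetases was below 0 in 13 of 13 alternatives, between -520 and -75.8 bp, with the percent scale at -3.39. The factors were below 0 in 11 and the synthetases above 0 in 10. The alternatives draw on the same libraries and genes, so they are not independent of each other. None used medians, which were -34.5 bp for factors and -38.5 bp for synthetases at the main setting. With 1 start site per gene, factors minus synthetases was -75.8 bp with an SD of 118 bp between libraries. With a library left out of each list, the difference ranged from -93.0 to 140 bp for the 31 genes, 22.0 to 175 bp for synthetases, -232 to 80.4 bp for factors and -254 to -94.3 bp for factors minus synthetases. No paired analysis was possible because the lists carry no replicate numbers. Peak lists without read depth limit what is shown: a peak's absence is not a measured zero, and covered length moves with the depth of a library.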

Other observations

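H3K4me2 peaks at these promoters were narrower in the first-listed LSD1-LKO library than in the first-listed control library, with medians of 834 and 1152 bp, and 1824 and 1891 bp in the second-listed ones. For the synthetases the first-listed medians were 864 and 1172 bp and the second-listed 1682 and 1888 bp. For the factors they were 818 and 920 bp, and 1693 and 1983 bp. Of the 43 control entries 29 covered an annotated start site, and of the 48 LSD1-LKO entries 27 did. Over the whole lists the first-listed medians were 565 bp in LSD1-LKO and 648 bp in controls, and the second-listed medians 1240 bp in LSD1-LKO and 1161 bp in controls.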
